A study of Mus musculus with 9 samples.

Results

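The Lce3 group is the part of the late cornified envelope gene family described here. Its members were the rows of the expression table whose symbol is Lce3a, Lce3b, Lce3c, Gm9782 or Lce3f, which gave 5 genes of 38203 in the table, and Gm9782 is now named Lce3d. A sixth gene lies among them under the symbol 2310001H18Rik, which the GENCODE M21 annotation names Lce3e. It was not chosen by the rule and is described beside the members. The libraries came from epidermis of E18.5 mouse embryos on a mixed background of C57BL6 and 129Sv that was backcrossed to C57BL6. WT embryos carried both Esrp1 and Esrp2 (2 libraries), KO embryos lacked Esrp1 and kept both alleles of Esrp2 (3 libraries), KH embryos lacked Esrp1 and were heterozygous for Esrp2 (2 libraries), and DKO embryos lacked both genes (2 libraries). All knockout alleles were germline, the Esrp1 allele having lost exons 7-9 through Zp3-Cre, so that every tissue of the embryo carried them. Each library was made from the trunk epidermis of 1 embryo after trypsin separation from the dermis. KO, KH and DKO embryos came from different crosses, so that genotype and litter cannot be told apart.

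Esrp1 and Esrp2 are RNA-binding proteins that set the splicing of exons in epithelial cells. The late envelope genes are a family of the epidermal differentiation complex, a run of neighbouring genes whose proteins are laid down under the membrane of a keratinocyte as it turns into a dead, flattened cell of the skin surface. They encode short proteins rich in cysteine, glycine and serine that transglutaminases cross-link into the cornified envelope. In skin the Lce1 group is known as the abundant one, and the Lce3 group is known for low levels in healthy skin and high levels in psoriasis and after injury to the barrier.

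The members stand on chromosome 3 of mm10 between positions 92925291 and 92993425, over 68.1 kb. Lce3a (chr3:92925291-92926230) lies on the minus strand. Lce3b (chr3:92932979-92934098), Lce3c (chr3:92944486-92945730), Gm9782 (chr3:92957419-92958575), 2310001H18Rik (chr3:92967061-92968281) and Lce3f (chr3:92992226-92993425) follow on the plus strand. Each has 2 exons in GENCODE M21, with the whole coding part of 297 bases, or 98 codons before the stop, in exon 2. The coding parts are near copies of each other, with an identity from 94.3% between Lce3a and Lce3b to 99.3% between Gm9782 and Lce3f. The 100 bases before the transcription start are less alike, from 44.3% between Lce3a and Lce3b to 90.1% between Lce3c and 2310001H18Rik, and are shown because all 6 genes were higher in DKO than in every other library. The sequences are from RefSeq on GRCm38.p6, which matched all 6 genes, and run 5′ to 3′ on the strand of the gene from base -100 to base -1, counted from the RefSeq start. That start is the start in the table for 4 of the 6 genes, but lies 29 bases before it for Gm9782 and 9 bases before it for Lce3f. Capitals mark the words of 8 or more bases that at least 5 of the 6 windows hold.
Lce3a (chr3:92926231-92926330, minus strand): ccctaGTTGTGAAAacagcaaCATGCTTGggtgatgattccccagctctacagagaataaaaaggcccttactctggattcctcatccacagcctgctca
Lce3b (chr3:92932879-92932978, plus strand): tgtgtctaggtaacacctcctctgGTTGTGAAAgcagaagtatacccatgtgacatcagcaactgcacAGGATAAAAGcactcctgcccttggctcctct
Lce3c (chr3:92944386-92944485, plus strand): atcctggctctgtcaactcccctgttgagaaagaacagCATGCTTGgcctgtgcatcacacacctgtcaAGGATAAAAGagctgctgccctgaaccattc
Gm9782 (chr3:92957290-92957389, plus strand): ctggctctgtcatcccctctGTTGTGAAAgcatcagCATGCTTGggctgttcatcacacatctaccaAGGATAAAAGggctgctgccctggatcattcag
2310001H18Rik (chr3:92966961-92967060, plus strand): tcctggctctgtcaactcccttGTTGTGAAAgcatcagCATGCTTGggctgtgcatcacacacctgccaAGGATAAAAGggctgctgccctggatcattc
Lce3f (chr3:92992117-92992216, plus strand): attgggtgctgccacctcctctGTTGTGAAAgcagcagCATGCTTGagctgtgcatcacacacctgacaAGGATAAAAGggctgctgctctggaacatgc

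Counted from the RefSeq start, the word AGGATAAAAG began at base -31 in Lce3c, 2310001H18Rik and Lce3f, at base -32 in Lce3b and at base -33 in Gm9782, and was not found in the window of Lce3a. It occurred in 13 of 32817 windows of the same length and strand over all genes, or 0.0396%, and in 0 of 14 Lce1 windows. GTTGTGAAA was shared by all but Lce3c, again in 13 of all windows and in 0 of 14 Lce1 windows. CATGCTTG was shared by all but Lce3b and occurred in 0.158% of all windows. These words were picked because at least 5 of the 6 windows hold them. The counts over all windows include those same windows, so that the rarity is no independent result. Motifs of fixed spelling were then searched on both strands of the 250 bases before each start. The C/EBP spelling TTGNNNAA was found in 6 of 6 genes against 33.3% of all windows. It lies within GTTGTGAAA, so that each window with that word had to hold it. The E-box spelling CANNTG was found in 5 of 6 against 66.2%. GATAAAAG was found in 5 of 6 against 0.780%, but it lies within AGGATAAAAG and so had to be in the windows with that word. TATAAA was found in 1 of 6, which was 2310001H18Rik, against 12.4%. The antioxidant response spelling TGACNNNGC was found in Lce3c, Gm9782 and 2310001H18Rik against 10.2%. CACCC, the core bound by Klf proteins, was found in 2 of 6 against 52.0%. The AP-1 spelling TGANTCA (6.75% of all windows) and the Grainyhead spelling AACCNGTT (1.78%) were in 0 of 6. A match is only a match of letters in the window, and no binding was measured here.

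The values are FPKM, the fragments of a gene scaled to its exon length and to the mapped fragments of the library, and over all genes they summed to between 713318 and 1130710 per library, with 11851 to 12228 genes at 1 FPKM or more. For Esrp2 the WT libraries held 118 and 136 FPKM, the KO libraries 88.1, 88.4 and 131, the KH libraries 38.6 and 89.5, and the DKO libraries 0.0843 and 0.0463. Esrp1, whose deleted allele can still be transcribed, was at 119 and 142 FPKM in WT and between 18.2 and 55.1 in the 7 libraries without it. A note on the RNA extraction gives the controls as lacking Esrp2, but the sample labels give WT and both WT libraries held Esrp2 RNA. KO 1, KH 1 and DKO 2 had low sums of the late envelope genes, since the 14 Lce1 genes summed to 6428 FPKM in KO 1, 6958 in KH 1 and 8087 in DKO 2, against 19040 to 24768 in the other 6. Low FPKM values of short genes lay on steps of whole fragments in every library, within 0.1 of a whole number for 91.8% to 94.9% of the genes fitted, so that the worth of 1 fragment could be estimated. By that estimate KO 3 was the most deeply sequenced library and DKO 1 the shallowest, 1 fragment being worth 0.532 and 2.11 times as much FPKM as in WT 2.

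Lce3c, Gm9782 and Lce3f rose in DKO epidermis against WT, and Lce3a and Lce3b were seen there while they were at 0 or about 1 fragment in each other library. A call needed an adjusted p below 0.05 in limma (Benjamini-Hochberg over 16897 genes) and more than a 2-fold difference in mean FPKM. Genes averaging above 0.1 FPKM in some genotype were tested, which left in 5 of 5 members. Lce3a and Lce3b passed only through DKO and so had to differ, and their calls are given as a description. Lce3c, Gm9782 and Lce3f averaged above 0.1 FPKM in every genotype. A call was made for 0.479% of all genes tested in that direction and 0.728% in either direction. Both DKO libraries were above all 7 others for each of Lce3c, Gm9782 and Lce3f, as they were for 5.33% of all genes, while both lay above both WT libraries for 27.8% of all genes. Lce3c, Gm9782 and Lce3f were also called against KO, where 0.639% of all genes were called and 0.521% higher in DKO, and against KH, where 0.426% were called and 0.385% higher in DKO. These 3 comparisons share the DKO libraries and are not independent of each other. In bulk epidermis, more cells that express a gene and more RNA per cell cannot be told apart.

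Lce3b was listed at 0 FPKM in all 7 libraries of WT, KO and KH, and at 5.25 and 4.71 FPKM in the DKO libraries. By the fragment estimate the DKO values stood for about 52.7 and 82.1 fragments, while 3 fragments, the most that a count of 0 readily allows, would be 0.0761 to 0.269 FPKM in the other libraries. Lce3b was thus the one member seen in DKO alone at this depth. The log2 difference to WT was 2.58 (SE 0.10, adjusted p = 1.92e-05, limma). It is a difference on the log2(FPKM + 1) scale and no fold, since WT was at 0. Its SE comes from groups in which every library was at 0 and from the spread of other genes, and without the filter on low values the adjusted p was 0.00361.

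Lce3a was at 3.21 and 1.99 FPKM in the DKO libraries, about 31.2 and 33.5 fragments. It was at 0.051 FPKM in WT 2, which is about 1 fragment, and listed at 0 in the other 6 libraries. The DKO and other libraries therefore did not overlap, although Lce3a remained the lowest of the members in DKO. The log2 difference of DKO to WT was 1.79 (SE 0.15, adjusted p = 0.000883), and without the filter the adjusted p was 0.044. The size of such differences depends on the pseudocount: with 0.1 in place of 1 it was 4.42 for Lce3a, 5.66 for Lce3b and 8.41 for Gm9782.

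Lce3c, the most abundant member, was at 1085 and 526 FPKM in DKO 1 and DKO 2. WT was at 70.3 and 79.3 FPKM, KO at 54.7, 93.8 and 78.8, and KH at 24.4 and 83.3. The lower DKO library was 5.60 times the highest other library, KO 2, and the DKO libraries themselves lay 2.06-fold apart. The WT mean was 74.8 ± 6.37 FPKM (SD, n = 2) and the DKO mean 805 ± 395 (SD, n = 2), which is 10.8-fold higher and a log2 difference of 3.32 (SE 0.55, adjusted p = 0.0378). Among the 3 members above the filter in every genotype, this call was the least firm. It was lost when any one of 7 of the 9 libraries was left out, both DKO, both WT and all 3 KO libraries. Without KO 1 the adjusted p was 0.0516. The call was also lost without the filter on low values (adjusted p = 0.289), without the intensity trend (0.0721) and with the replicate number as a block (0.114). With the mean Lce1 level of each library as a covariate, an alternative added after seeing the data, the difference was 3.57 (SE 0.28, adjusted p = 0.00112).

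Gm9782, now Lce3d, was at 95.8 and 104 FPKM in DKO and below 1 FPKM in all other libraries. WT was at 0.177 and 0.212 FPKM, KH at 0.189 and 0.291, and KO at 0.0689, 0.943 and 0.771. The lower DKO library stood 102 times above the highest other library, KO 2, whose value rests on about 8.93 fragments. The log2 difference to WT was 6.40 (SE 0.29, adjusted p = 2.73e-05), the largest of the members, and the 2 DKO libraries differed by only 1.08-fold. Fragment numbers of Gm9782 are approximate, because its transcript length was taken from GENCODE M21, where the gene runs from 92957390 to 92958505 and not from 92957419 to 92958575 as in the table.

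For Lce3f the WT libraries held 2.26 and 3.07 FPKM, the KO libraries 1.87, 2.95 and 3.52, the KH libraries 1.19 and 2.63, and the DKO libraries 118 and 103. No library outside DKO came near the DKO level, the lower DKO library being 29.2 times the highest of them. The WT mean of 2.66 ± 0.57 FPKM (SD, n = 2) and the DKO mean of 111 ± 10.8 (SD, n = 2) differed 41.6-fold, with a log2 difference of 4.94 (SE 0.32, adjusted p = 0.000172).

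2310001H18Rik, or Lce3e, followed the members. The WT libraries held 7.04 and 6.44 FPKM of it, the KO libraries 4.21, 6.18 and 7.42, the KH libraries 1.20 and 6.67, and the DKO libraries 157 and 124. The lower DKO library was 16.7 times the highest other library. The log2 difference to WT was 4.18 (SE 0.51, adjusted p = 0.00701), and the gene was called higher in DKO, as 0.479% of all genes were.

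**Figure D1:**
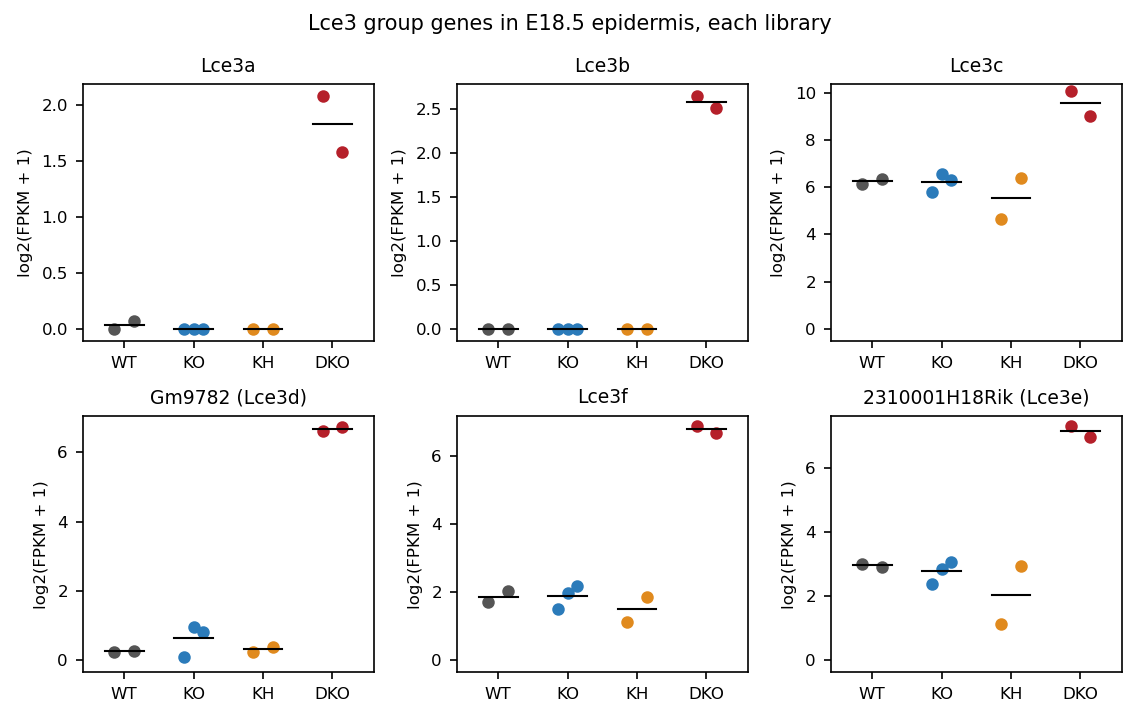
Level of each Lce3 group gene as log2(FPKM + 1) in every library (points) by genotype, with the genotype mean as a bar. Each panel has its own vertical scale. The 2 DKO libraries lie above all 7 others in each panel, and Lce3b is at 0 in those 7.

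Reads of near copies can be assigned to the wrong gene. Of the 100-base words of each transcript, the length of 1 read, 0% occurred in the transcript of another gene for Lce3a and 1.08% for Lce3b, whereas 24.1% did for Lce3c, 28.3% for Gm9782, 36.4% for 2310001H18Rik and 43.0% for Lce3f. These are exact words, while mapping allowed mismatches, so that they understate the reads that could be placed on a near copy. The split of fragments among Lce3c, Gm9782, 2310001H18Rik and Lce3f is uncertain, and that of Lce3a and Lce3b less so by this measure, although the coding part of Lce3a is 98.0% identical to those of Gm9782 and Lce3f, and the genes that share their 100-base words were all of the Lce3 group. At 25 bases the shared part was 34.9% to 64.0%, and some of these words were also in Lce1 transcripts.

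Loss of Esrp1 alone, or with 1 allele of Esrp2, was not accompanied by a called change of any member. In KO against WT 0 of 5 were called, as in KH against WT and KH against KO, where 0.0296%, 0.0296% and 0% of all genes were called, with 0.00592% called higher in KH than in WT. None of the members had an unadjusted p below 0.05 in limma either, and the lowest was 0.191 for Gm9782 in KO against WT. Lce3a and Lce3b were at 0 or about 1 fragment in these genotypes, so that their differences carry no information. Gm9782 was near the floor as well, at about 1.78 and 3.54 fragments in WT, 2.66 and 2.65 in KH and 0.886, 8.93 and 24.9 in KO, so that the counts rest mainly on Lce3c and Lce3f. For Lce3f, KO differed from WT by 0.03 on the log2 scale with a 95% interval of -0.63 to 0.69, and KH by -0.37 with an interval of -1.09 to 0.35. For Lce3c the corresponding values were -0.01 (-1.16 to 1.13) and -0.71 (-1.96 to 0.55). The upper ends of these intervals stay below the lower ends for DKO against WT, which were 4.22 for Lce3f and 2.06 for Lce3c. Gm9782 was higher in KO 2 and KO 3 than in both WT libraries and lower in KO 1, with a log2 difference of 0.37 (-0.22 to 0.96, adjusted p = 0.853).

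The comparisons of DKO with KO and KH ask about the Esrp2 alleles on a background without Esrp1. Against KO, the log2 differences were 1.83 for Lce3a, 2.58 for Lce3b, 3.33 for Lce3c, 6.03 for Gm9782 and 4.91 for Lce3f, with adjusted p-values from 1.44e-05 for Gm9782 to 0.0251 for Lce3c among the 3 members above the filter in every genotype. Against KH, which kept 1 allele of Esrp2, they were 1.83, 2.58, 4.03, 6.35 and 5.30, with adjusted p-values of those 3 from 2.97e-05 for Gm9782 to 0.0186 for Lce3c. The larger value of Lce3c against KH goes with KH 1, the library in which Lce3c and Lce3f were lowest. Without KH 1 it was 3.16 (adjusted p = 0.0558). The call of Lce3c against KO was lost without either DKO library, either WT library or any KO library. That against KH was lost without either DKO or WT library, KH 1 or KO 3. Both calls were also lost with the replicate number as a block. Without the filter on low values they were lost too, at adjusted p of 0.284 against KO and 0.262 against KH.

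**Figure D2:**
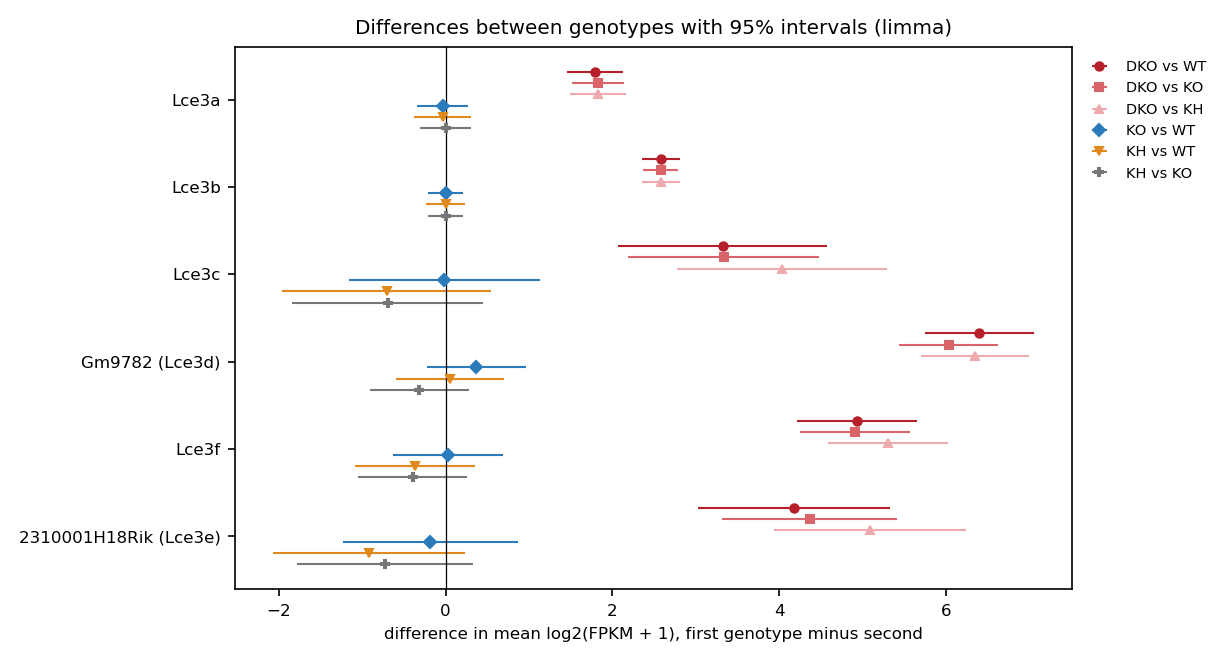
Difference of each Lce3 group gene between genotypes in mean log2(FPKM + 1), first genotype minus second, with 95% intervals from limma. The 3 comparisons with DKO lie to the right of 0 for every gene, and the intervals of the 3 other comparisons cross 0.

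The levels per length kept almost the same order in all genotypes. In the WT libraries Lce3c came first, followed by 2310001H18Rik, Lce3f, Gm9782 and then Lce3a and Lce3b at or near 0. In DKO the order was Lce3c, 2310001H18Rik, Lce3f and Gm9782, with Lce3b and Lce3a last. The DKO libraries of Lce3f (118 and 103 FPKM) and Gm9782 (95.8 and 104) overlapped, so that these neighbours do not differ beyond their spread. In WT the same genes were at 2.26 and 3.07 against 0.177 and 0.212 FPKM.

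The makeup of the group also differed in DKO. Lce3c made up 87.1% to 90.4% of the summed FPKM of the 6 genes in the 7 libraries outside DKO, and 74.1% and 60.9% in DKO. Gm9782 held 0.113% to 0.908% outside DKO and 6.54% and 12.0% in DKO. The share of Lce3f was 2.83% to 4.41% outside DKO and 8.08% and 11.9% in DKO, and that of 2310001H18Rik was 4.44% to 8.82% and then 10.7% and 14.3%. The shares of these 4 genes did not overlap between DKO and the other libraries. The shares are a description, and they rest on the split of reads among near copies.

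**Figure D3:**
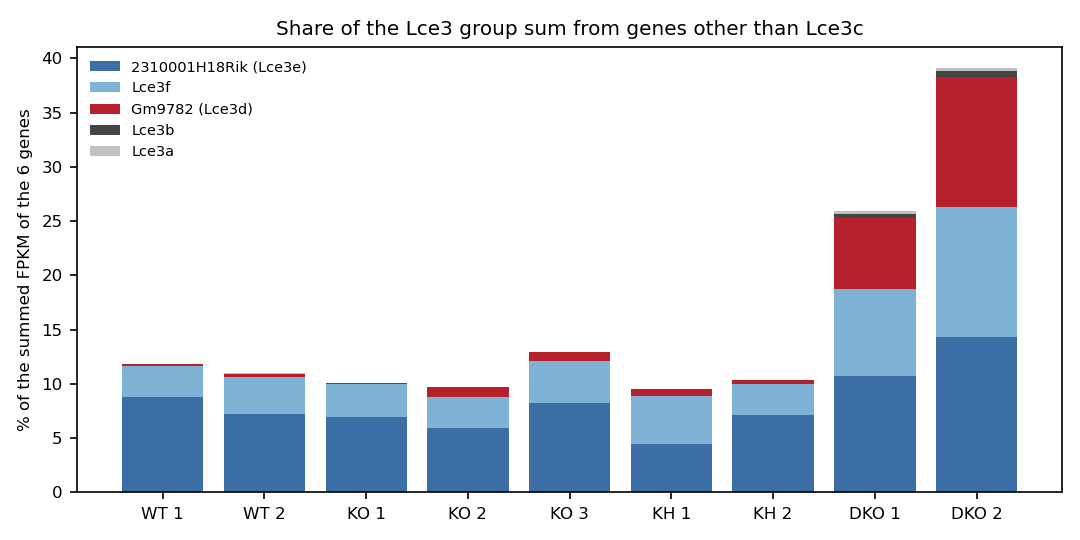
Share of the summed FPKM of the 6 Lce3 group genes that came from the 5 genes other than Lce3c, in % per library. The bars reach about the same height in the 7 libraries of WT, KO and KH and stand higher in both DKO libraries, in which the parts of Gm9782 and Lce3f are larger.

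Summed over the 5 members, WT libraries held 72.8 and 82.7 FPKM, KO libraries 56.7, 97.7 and 83.1, KH libraries 25.8 and 86.2, and DKO libraries 1307 and 739. The Lce1 group was compared as a list. Of the 15 genes of the Lce1 group with Lce6a, 0 were called in DKO against WT, where 0.728% of all genes were called in either direction. Their median log2 difference was -0.57 against 0.02 over all genes. In the other comparisons, where at most 0.639% of all genes were called, 0 of 15 were called as well. Their median was -0.74 in KO against WT and -0.68 in KH against WT, with 0 of 15 differences positive in each. It was 0.20 in DKO against KO, with 12 of 15 positive, and 0.20 against KH, with 11 of 15. DKO 2 had 739 FPKM of Lce3 members with 8087 of Lce1, and DKO 1 had 1307 with 22660. KO 1 and KH 1, whose Lce1 sums were also low, held the lowest Lce3 sums of the 9 libraries. As a share of the Lce1 sum, the Lce3 members came to 5.77% and 9.14% in DKO and to between 0.303% and 0.882% in the other 7 libraries. The Lce1 sum differed between the DKO libraries, and its part in the level of each member was not tested beyond the covariate fit. In that fit Lce3c, Gm9782 and Lce3f were called against WT, KO and KH, where 2.44%, 1.95% and 1.3% of all genes were called.

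**Figure D4:**
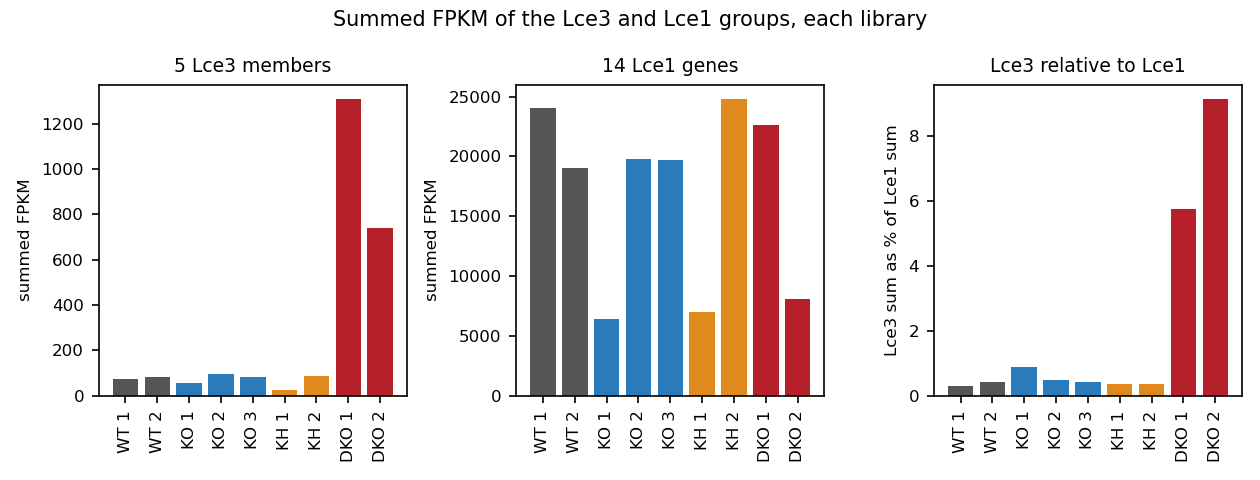
Summed FPKM of the 5 Lce3 members (left), of 14 Lce1 genes (middle) and the first as % of the second (right), 1 bar per library coloured by genotype. The Lce1 sum is low in KO 1, KH 1 and DKO 2, and the Lce3 sum and share are highest in both DKO libraries.

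Most genes beside the group were not called. Of the 5 nearest tested genes on each side, which are Lce1j, Lce1k, Kprp, Lce1l and 2310050C09Rik on the left and Crct1, Lce1m, Gm4858, Crnn and Flg2 on the right, only Crnn was called in DKO against WT. Crnn, which encodes cornulin of the surface layers of squamous epithelium, differed by 2.83 (SE 0.43, adjusted p = 0.0234). Crct1, the nearest at 20.8 kb, differed by -0.87 (SE 0.76, adjusted p = 0.622). Besides 2310001H18Rik, the span of the members holds 2 U6 rows, which were at 0 in every library. Within 500 kb on each side of the group 43 other genes were tested, with a median log2 difference of -0.54 against 0.02 over all genes. Of them 5 were called higher and 0 lower, a larger part than the 0.479% called higher over all genes. The 5 were 2310001H18Rik, Crnn, Rptn, Tchhl1 and Sprr1b. Rptn, which encodes repetin, was at 321 and 288 FPKM in DKO and at most 14.8 in the other libraries.

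**Figure D5:**
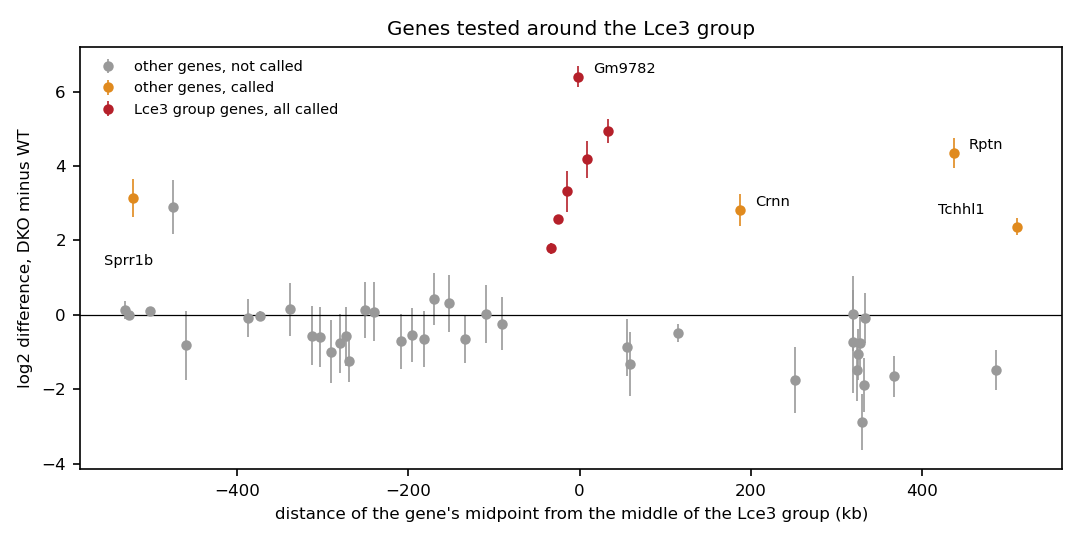
Log2 difference of DKO to WT, with its standard error, for each tested gene in and around the Lce3 group against the distance of its midpoint from the middle of the group in kb. The 6 Lce3 group genes stand above 0 in the middle, most genes beside them lie at or below 0, and Sprr1b, Crnn, Rptn and Tchhl1 are the other called genes.

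The genes that make or carry the cornified envelope were compared as lists in DKO against WT. Of 18 rows for scaffold proteins and cross-linking enzymes, 3 were called higher (Rptn, Crnn and Tchhl1) and 0 lower. Over all genes 0.479% were called higher and 0.728% in either direction. The median log2 difference of the list was -0.64, against 0.02 over all genes. The median was -0.49 in KO against WT and -0.53 in KH against WT, with 0 of 18 positive in each, and 0.07 in DKO against KO and 0.13 in DKO against KH. Loricrin, the main scaffold protein, was at 5665 and 2645 FPKM in DKO and 5511 and 4398 in WT (Lor, -0.35, adjusted p = 0.849). Involucrin was at 1083 and 677 against 931 and 890 (Ivl, -0.09, adjusted p = 0.955). Tgm1, the transglutaminase of the envelope, differed by -0.19 (adjusted p = 0.882). The other 15 rows of the list, Lor and Ivl among them, were not called in either direction.

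Keratinocyte genes known to rise when the barrier is injured were compared next. Of 25 rows, 13 were called higher and 1 lower in DKO against WT, where 0.728% of all genes were called, and the median log2 difference was 2.91 against 0.02 over all genes. Krt6b, a keratin of wounded and hyperproliferative epidermis, was at 710 and 1593 FPKM in DKO and 6.87 and 12.2 in WT, a difference of 6.71 (adjusted p = 8.55e-05). Slpi, an inhibitor of neutrophil proteases, differed by 5.86 (adjusted p = 2.73e-05), Krt6a by 5.71 (adjusted p = 0.00222) and Sprr2b, a small proline-rich envelope protein, by 5.18 (adjusted p = 0.00175). The gene called lower was Serpinb3a, with 365 and 454 FPKM in WT and 75.6 to 179 FPKM in the 7 libraries without Esrp1, DKO at 130 and 75.6. This list was chosen with results of these libraries known, so that its count is not independent evidence. Against KO 12 of the 25 were called higher and against KH 12, where 0.521% and 0.385% of all genes were.

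Of 23 transcription factors known to regulate late differentiation or stress responses in keratinocytes, 1 was called higher and 0 lower in DKO against WT. Over all genes 0.479% were called higher and 0.728% in either direction. The called one was Fosl1, an AP-1 subunit, at 2.60 and 2.99 FPKM in DKO and between 0.0886 and 0.57 in the other 7 libraries (log2 difference 1.37, adjusted p = 0.0169). Nfe2l2, which encodes Nrf2, differed by 0.55 (SE 0.26, adjusted p = 0.393), Klf4 by -0.54 (adjusted p = 0.467) and Grhl3 by 0.41 (adjusted p = 0.617). Grhl1 had the largest difference in the other direction, -1.54 (adjusted p = 0.136). These are levels of RNA, and the activity of the proteins was not measured.

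The tissue held the genes of all epidermal layers in every library. None of the lists for keratinocyte layers had a called gene in DKO against WT. Over all genes 0.728% were called, so that 0 is near that share for lists this short. The medians were 0.33 for 7 basal genes, -0.78 for 6 spinous genes and -0.52 for 9 granular genes. They were 0.32, -0.48 and -0.58 in KO against WT, and 0.35, -0.69 and -0.53 in KH against WT. In DKO against KO they were 0.01, -0.37 and 0.17, and in DKO against KH -0.02, -0.11 and 0.17. Of 6 genes of tongue and oesophagus epithelium 5 had positive differences and 1 was called higher, which was Krt84 at 4.63 and 3.61 FPKM in DKO and at most 0.453 elsewhere. Krt13 was at 47.1 and 9.46 FPKM in DKO and at most 3.85 elsewhere, Krt4 at 0.339 and 0.296 and at most 0.0893, and Krt36 at 0.235 and 0.64 and at most 0.0823. Krt76, also counted as positive (0.04, SE 0.09), was at 0.128 and 0 FPKM in DKO and up to 0.160 elsewhere. Krt78, the most abundant of the list, was at 146 and 68.3 FPKM in DKO and 227 and 233 in WT (-1.20, adjusted p = 0.411), and the list summed to 82.3 and 198 FPKM in DKO, 231 and 236 in WT, 75.1 to 212 in KO and 74.2 to 206 in KH. Of 5 periderm and simple epithelium genes 0 were called. The sum of those 5 was 16.8 and 20.5 FPKM in DKO, above the 8.89 to 12.5 of the other 7 libraries. That gap came mainly from Krt7, since the DKO ranges of Krt8, Krt18, Krt19 and Krt20 each overlapped those of the other libraries. Against KO, where 0.521% of all genes were called higher, 1 of the 5 was. It was Krt7, with at least 9.53 FPKM in both DKO libraries and 3.05 to 5.16 elsewhere. Among cell types outside the keratinocytes, 0 genes were called of 6 tested for fibroblasts, 5 for neutrophils and macrophages, 8 for lymphocytes and Langerhans cells, 1 for endothelium, 3 for skeletal muscle, 6 for melanocytes and 6 for red blood cells. For lists this short that is again near the 0.728% called over all genes. The sums of the lists for melanocytes and red blood cells were highest in DKO 2, and the range of DKO overlapped that of KH for the first and those of WT and KO for the second. All 6 melanocyte genes had positive differences (median 1.34), and their sum was 97.2 and 213 FPKM in DKO against 44.5 and 50.03 in WT, 69.9 to 86.7 in KO and 58.5 to 155 in KH. Their median difference to WT was 0.65 in KO and 0.88 in KH. All 6 red blood cell genes had positive differences too (median 1.69), with sums of 431 to 1520 FPKM in DKO against 92.9 to 624 in WT, 106 to 587 in KO and 15.3 to 172 in KH. Here the median was 0.12 in KO and -1.84 in KH. The seventh red blood cell gene, Hbb-y, was listed at 0 in 6 of 9 libraries. The lymphocyte and Langerhans list summed to 12.3 to 35.4 FPKM in DKO and 4.88 to 10.6 in WT, with up to 30.9 in KO and 49.5 in KH. The sum of the neutrophil and macrophage list was 21.6 to 32.7 FPKM in DKO, 13.3 to 19.0 in WT and 18.2 to 20.4 in KO and 15.2 to 43.9 in KH. Of its neutrophil markers, Mpo and Elane were at 0 in each library, while Camp, Ltf and Ngp were highest in DKO 2, at 0.105, 0.052 and 0.107 FPKM, and at 0 in DKO 1. The part of these cell types, periderm and the tongue and oesophagus genes included, in the values of the Lce3 genes was not tested.

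The genes most like the members over the 9 libraries were ranked by Pearson's r with the mean log2(FPKM + 1) of the 5 members among 12735 genes averaging at least 1 FPKM in some genotype. The first 10 were Spink12, Krt84, Slc5a8, Prr9, SNORA42 (now Gm26205), Lpo, Ccl20, Isx, Slpi and Snora7a, with r from 0.987 to 0.995. Since the DKO libraries stand apart for the members, r mostly reflects the gap between DKO and the rest. Each of the 10 averaged below 1 FPKM in WT, KO and KH and so entered the ranking only through DKO. Their likeness to the members was thus largely set by that filter. Ccl20, a chemokine of keratinocytes, was at 48.1 and 38.8 FPKM in DKO and between 0.119 and 0.752 in the others. Slpi was at 84.0 and 66.4 against 0.243 to 1.12. Prr9, a proline-rich gene of the same gene complex, was at 8.68 and 5.17 against 0.179 to 0.610. Lpo, a secreted peroxidase, was at 6.96 and 5.36 against 0.0583 to 0.432, and Slc5a8, a transporter of short carboxylic acids, at 12.9 and 9.26 against 0.350 to 0.633.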

How the data were processed

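Epidermal RNA of 9 individual embryos was sequenced by the authors as stranded, poly-A selected paired reads of 100 bases. The authors mapped them with TopHat 1.4.1 to mm10 and Ensembl 72 and made the deposited FPKM with Cuffdiff 2.2.0. FPKM was used as deposited, without the 4 columns of genotype means. Multiply mapping reads and the scaling between libraries could change values of near copies. Depth per library was estimated from the FPKM steps, since the table holds no counts.

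Genes averaging above 0.1 FPKM in at least 1 genotype were fitted together on log2(FPKM + 1), pseudocount 1, with limma 3.58.1 in R 4.3.3 and an intensity trend. A call needed an adjusted p below 0.05 and a 2-fold difference. The scale understates changes of low genes. The procedure was tested on simulated data. Python 3.11.15 was used for the rest.

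The members and lists were chosen with earlier results of these data known. Named genes are the members and other Lce3 rows, called genes of each list with the largest differences (up to 4), the genes in and beside the group, the 10 most correlated genes and Esrp1 and Esrp2. Others were chosen after their values were seen. Alternatives covered pseudocount, filters, scaling, weights, replicate block and left-out libraries.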

Additional observations from a re-analysis of the deposited data

How the results depend on the processing

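The counts of members called, the difference of each member and the count over all genes were recomputed under 13 other settings and without each of the 9 libraries in turn. 2310001H18Rik, the neighbours, the lists and the shares were not. Gm9782 and Lce3f kept their calls in all 3 comparisons with DKO under each of the 22 alternatives. Lce3a and Lce3b, at 0 or about 1 fragment outside DKO, could be called in 1 direction only, so that their calls say nothing of stability, and they are in each count of members below. With only the 2 genotypes compared in the fit, 3 of 5 members were called in DKO against KH, beside 0.2% of all genes, Lce3a having an adjusted p of 0.0814 and Lce3c of 0.206 (limma). Lce3c kept its direction, at 2.80 to 3.84 against WT, but lost its call in 11 of 22 alternatives against WT and against KO and in 10 against KH, with adjusted p from 0.00112 to 0.326 against WT. It was lost without the filter on low values (0.289) and without the intensity trend (0.0721), and the cause was not tested. Leaving out 1 library gave 4 to 5 members called in each of these comparisons, and 0 in the others.

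By the replicate numbers of the titles, the correlations of same-numbered deviations from the genotype means ran from -0.62 to 0.51, so that they were not taken as pairs. By the other numbers, those of the table's columns, they ran from -0.27 (KH 1 and WT 1) to 0.59 (DKO 1 and KO 2). By those DKO shares no number with WT and 1 each with KO and KH, so that no paired fit of a comparison with DKO was made from them. With the title number as a block, 4 of 5 members were called in DKO against WT, KO and KH, beside 0.397%, 0.308% and 0.254% of all genes, Lce3c being lost at adjusted p of 0.114, 0.188 and 0.0943, and Lce3f in KO against WT was -0.11. With the block crossed, the KH numbers being swapped (added after seeing the data), the counts were 4 as well, beside 0.408%, 0.314% and 0.254%, and Lce3f was again -0.11.

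With a pseudocount of 0.1, DKO against WT was 4.42 for Lce3a, 5.66 for Lce3b, 3.34 for Lce3c, 8.41 for Gm9782 and 5.34 for Lce3f.

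Small uncalled differences changed sign. In KO against WT these were Lce3f rescaled to TPM (-0.0020), Lce3c under median ratio scaling (0.014), quantile normalization (0.019) and arrayWeights (0.0029), and, with Lce1 as a covariate, Lce3a (0.014) and Lce3c (0.42). Lce3a in KH against WT was 0.013 under that covariate. With libraries left out, Lce3c ran from -0.18 to 0.20 and Lce3f from -0.13 to 0.22 in KO against WT, Lce3c from -1.57 to 0.16 and Gm9782 from -0.0059 to 0.11 in KH against WT, and Lce3c from -1.56 to 0.17 in KH against KO.

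Over all genes, 123 were called in DKO against WT. The count was 41 without a filter, 400 with 2 genotypes in the fit, 556 with arrayWeights, 67 with the replicate block, 69 with the crossed block, 412 with the Lce1 covariate, and 54 (without WT 2) to 152 (without KH 2) with 1 library left out. Where only 1 library of a genotype remained, its spread was taken from the rest.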
